A study of Tachycineta bicolor with 30 samples.

Results

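The genes described here encode peptides with which the hypothalamus drives or restrains feeding, and receptors that read those peptides or the body's energy stores. They were chosen by name: of 10 named transcripts, 8 matched the annotation of the deposited table, each with 1 transcript among the 19478 in all. These are pro-neuropeptide Y (NPY), agouti-related protein (AGRP), pro-melanin-concentrating hormone (PMCH), galanin (GAL), cocaine- and amphetamine-regulated transcript (CARTPT), melanocortin receptor 4 (MC4R), neuropeptide Y receptor type 1 (NPY1R) and the leptin receptor (LEPR). Pro-opiomelanocortin and orexin were not analysed here. RNA was sequenced from free-living adult female tree swallows (Tachycineta bicolor), 5 caught during incubation (INC), when they sat on complete clutches, and 4 during territory establishment (TE), when they defended nest boxes and their follicles were still small. Each female gave a macrodissected hypothalamus (HYPO, with the preoptic area), ventromedial telencephalon (VmT, the tissue around the expected position of nucleus taeniae) and hindbrain (HB), which makes 27 libraries.

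In birds as in mammals, neurons of the infundibular (arcuate) nucleus make NPY together with AGRP and raise food intake, while neighbouring neurons make melanocortins and CART peptide and lower it. AGRP acts by blocking MC4R, the receptor for melanocortins, and NPY acts in part through NPY1R. In mammals, MCH comes from the lateral hypothalamus and galanin from many hypothalamic groups, and LEPR reads leptin, a hormone of fat stores.

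Values are normalized counts, that is, reads scaled by a single size factor for each library. They are not divided by transcript length, so that levels can be compared between samples but not between genes. Reads summed over the transcripts of the deposited data were between 6001315 and 13710385 per library, with a median of 8308433. These sums are below the mapped read pairs that the study reports per sample, so they are not the sequencing depth. A marker gene sat with the labels: HOXB5, a patterning gene of the hindbrain, had 117 to 241 normalized counts in the 9 HB libraries and at most 1.04 in the other 18. Some libraries stood apart. The HB library of INC female 85889 carried pituitary transcripts, with a summed 89038 normalized counts over 6 pituitary markers, against 4.84 to 686 in the other HB libraries. The HYPO library of INC female 85899 had the lowest mean log2 level of 10 hypothalamus markers (4.73, against 5.20 to 6.69 in the other 8). The HYPO library of TE female 85694 had the highest. For 1 VmT library of TE the labels disagree on the female's number, and 1 of the numbers is that of the TE female the study set aside as an outlier, so the library may come from that bird and not from 1 of the 4. Its stage is the same either way, so it was kept in its group, left out of counts by female and named below as the unresolved library.

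The first question was where in the brain these genes were expressed. In HYPO 4 of the 8 were higher than in VmT (AGRP, PMCH, GAL and CARTPT) and 2 lower (NPY and NPY1R), and against HB 6 were higher and 0 lower. In VmT 4 were higher than in HB (NPY, PMCH, MC4R and NPY1R) and 0 lower. Differences are log2(normalized count + 1) in 1 limma fit of all 27 libraries, with p adjusted by Benjamini-Hochberg over 19473 transcripts, and a gene is called at an adjusted p of at most 0.05. By that rule 25.9% of all transcripts differed between HYPO and VmT, 12.4% between HYPO and HB and 43.4% between VmT and HB, beside 6, 6 and 4 of the 8 genes. By direction, 14.1% of all transcripts were higher and 11.7% lower in HYPO than in VmT, 5.33% and 7.05% in HYPO than in HB, and 17.6% and 25.7% in VmT than in HB. In these whole-tissue samples fewer cells of a type and less RNA per cell cannot be told apart.

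NPY was highest in VmT and lowest in HB. It had 78.8 to 275 normalized counts in HYPO (median 202), 228 to 708 in VmT (median 459) and 66.7 to 142 in HB (median 95.1), so that no VmT library overlapped with HB, while HYPO overlapped with both. HYPO minus VmT was -1.26 (SE 0.18, adjusted p = 6.05e-06), with NPY lower in HYPO in all 8 females that could be paired. HYPO minus HB was 0.96 (SE 0.18, adjusted p = 4.86e-04) and VmT minus HB was 2.22 (SE 0.18, adjusted p = 7.57e-11). NPY1R, its receptor, had the same highest region: 153 to 379 normalized counts in VmT, against 101 to 208 in HYPO and 80.4 to 166 in HB. HYPO minus VmT was -0.98 (SE 0.17, adjusted p = 6.37e-05), while HYPO minus HB was 0.15 (95% interval -0.20 to 0.49, adjusted p = 0.655).

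AGRP, the blocker of MC4R, was higher in HYPO than in either other region. It had 5.19 to 73.8 normalized counts in HYPO (median 39.1), 0 to 7.42 in VmT (median 3.71) and 1.93 to 51.0 in HB (median 5.85). Its mean in HYPO was 9.98 times that in VmT (log2 difference 3.02, SE 0.52, adjusted p = 7.24e-05) and 2.91 times that in HB (log2 difference 1.91, SE 0.52, adjusted p = 0.0147). It was higher in HYPO than in VmT in 7 of 8 females and than in HB in 6 of 9. In HB 1 library was far above the others: INC female 85774 had 51.0, within the HYPO range, and the next highest HB libraries had 20.1 and 14.5. VmT minus HB was -1.11 and missed the threshold (adjusted p = 0.0890), which edgeR (0.0453) and DESeq2 (0.0156) passed on the recovered reads.

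PMCH, the precursor of MCH, had the widest differences of the 8 between HYPO and the other regions. It had 13.8 to 169 normalized counts in HYPO (median 78.9) and 0 to 12.1 in VmT, and 4 of the 9 VmT libraries were at 0. In HB it had 0 reads in all 9 libraries together. Its mean of 81.3 in HYPO was 32.9 times that in VmT (log2 difference 4.91, SE 0.46, adjusted p = 3.58e-09) and at least 240.3-fold higher than HB, taking a floor of 3 reads over the 9 HB libraries. VmT minus HB (1.19, adjusted p = 0.0359) rests on 26 reads in VmT. With a pseudocount of 5 it was 0.45 (adjusted p = 0.230), and it passed the threshold no longer without the VmT library of INC female 85757, which holds the value of 12.1 (0.86, adjusted p = 0.0717), of INC female 85889 (0.0534) or of TE female 85694 (0.0803), the unresolved VmT library (0.0791), or the HB library of TE female 85674 (0.0514), 85689 (0.0519) or 85691 (0.0502).

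GAL, the galanin precursor, had 40.7 to 230.5 normalized counts in HYPO (median 97.7), 8.40 to 228 in VmT (median 27.8) and 16.4 to 56.9 in HB (median 38.0). HYPO was higher than VmT by 1.55 (SE 0.41, adjusted p = 0.00529) and higher than HB by 1.54 (SE 0.41, adjusted p = 0.0115), whereas VmT minus HB was -0.016 (95% interval -0.85 to 0.82). By stage, the means in HYPO and VmT were 89.8 and 89.7 in INC and 132 and 25.0 in TE. The SD of log2 values over the 9 VmT libraries was 1.56, above that of 99.6% of all tested transcripts.

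CARTPT, the peptide gene of the feeding-restraining neurons, was highest in HYPO. It had 132 to 350 normalized counts there (median 227), 32.5 to 137 in VmT (median 68.2) and 57.6 to 118 in HB (median 90.9), and no HYPO library overlapped with HB. HYPO minus VmT was 1.76 (SE 0.18, adjusted p = 1.32e-08) and HYPO minus HB was 1.35 (SE 0.18, adjusted p = 2.84e-06). VmT minus HB was -0.42 (SE 0.18, adjusted p = 0.0584), and it passed under 12 of 43 alternatives. Among these were a fit that pairs regions by female, as a replicate block (adjusted p = 0.0340), array weights (0.0235) and a fit of the regions compared alone (0.0369).

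MC4R was higher in HYPO and in VmT than in HB. It had 88.3 to 183 normalized counts in HYPO, 118 to 204 in VmT and 42.6 to 110.5 in HB. HYPO minus HB was 1.11 (SE 0.17, adjusted p = 2.59e-05), VmT minus HB was 1.35 (SE 0.17, adjusted p = 1.84e-07), and HYPO minus VmT was -0.25 (95% interval -0.59 to 0.10, adjusted p = 0.308). LEPR passed no test between regions, with means of 53.4, 61.5 and 75.4 normalized counts in HYPO, VmT and HB. Its largest difference was HYPO minus HB, -0.46 (SE 0.18, adjusted p = 0.106), which passed with that block (adjusted p = 0.0482) and without the HB library of INC female 85899 (-0.54, adjusted p = 0.0490). The 9 libraries of a region did not overlap with those of another for 1 of the 8 in HYPO against VmT (PMCH), 2 of the 8 in HYPO against HB (CARTPT and PMCH) and 2 in VmT against HB (NPY and MC4R), beside 3.48%, 2.49% and 9.94% of all transcripts.

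**Figure D1:**
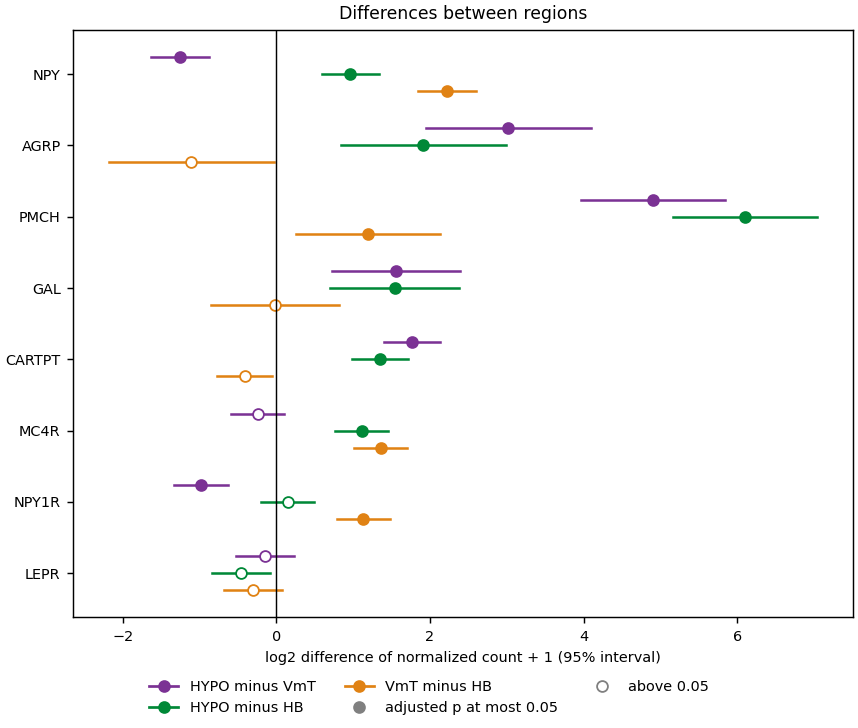
Differences between regions for each gene, as log2 of the normalized count plus 1 with 95% intervals (horizontal axis), from 9 libraries per region. Filled points passed the test (adjusted p up to 0.05). PMCH is farthest to the right for both HYPO contrasts (4.91 and 6.10), NPY and NPY1R are the 2 filled points left of 0, and LEPR has no filled point. PMCH had 0 reads in HB, so its value of 6.10 depends on the 1 that is added. It ran from 3.88 to 9.33 over the alternative fits.

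Some genes around these peptides also differed between regions. In a list of 22 other receptor genes, 8 were higher and 5 lower in HYPO than in VmT. Most encode receptors of feeding peptides, but HTR2C (serotonin), CNR1 (cannabinoids) and MRAP2 (an accessory protein of melanocortin receptors) do not. Melanocortin receptor 3, a further receptor for melanocortins, had a mean of 105 normalized counts in HYPO, 43.9 in VmT and 9.26 in HB (HYPO minus HB 3.39, SE 0.25, adjusted p = 5.31e-11). The NPY receptor NPY2R was, like NPY and NPY1R, lower in HYPO than in VmT (means of 946 and 1379, log2 difference -0.56, adjusted p = 1.57e-04), and so was the serotonin receptor HTR2C (109 and 251, log2 difference -1.17, adjusted p = 3.58e-08). Of 13 other peptides of feeding, 7 were higher and 2 lower in HYPO than in VmT; TAC1, the tachykinin precursor, was lower (1009 and 4338, log2 difference -2.04, adjusted p = 1.62e-10) and ADCYAP1, the PACAP precursor, was higher (1881 and 832, log2 difference 1.23, adjusted p = 2.90e-09). Against HB, 5 of these 13 were higher in HYPO and 2 lower, cholecystokinin among the higher (666 and 129, log2 difference 2.36, adjusted p = 1.00e-11). Of 12 genes of peptide processing, 6 were higher and 2 lower in HYPO than in VmT, among the higher ones carboxypeptidase E (log2 difference 0.38, adjusted p = 0.00156), which trims peptides after cleavage. Of 18 genes of leptin, insulin and energy signaling, 3 were higher and 5 lower. CAMKK2, a kinase upstream of AMP-activated kinase, was among the lower (1645 and 5592, log2 difference -1.78, adjusted p = 9.25e-09). In HYPO against HB, 6 genes of the receptor list were higher and 1 lower, 3 processing genes higher and 0 lower, and 0 energy signaling genes higher and 2 lower. In VmT against HB, 9 genes of the receptor list were higher and 3 lower, 5 peptides higher and 5 lower, 4 processing genes higher and 4 lower, and 5 energy signaling genes higher and 3 lower. Of all transcripts, 14.1% were called higher and 11.7% lower in HYPO than in VmT. The shares were 5.33% and 7.05% in HYPO against HB, and 17.6% and 25.7% in VmT against HB. Some counts of the lists lie near these shares, such as the 2 of 18 energy signaling genes called in HYPO against HB, beside 12.4% in either direction. The median HYPO minus VmT differences of the 4 lists were 0.19, 0.56, 0.11 and -0.048, beside 0.046 over all transcripts.

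**Figure D2:**
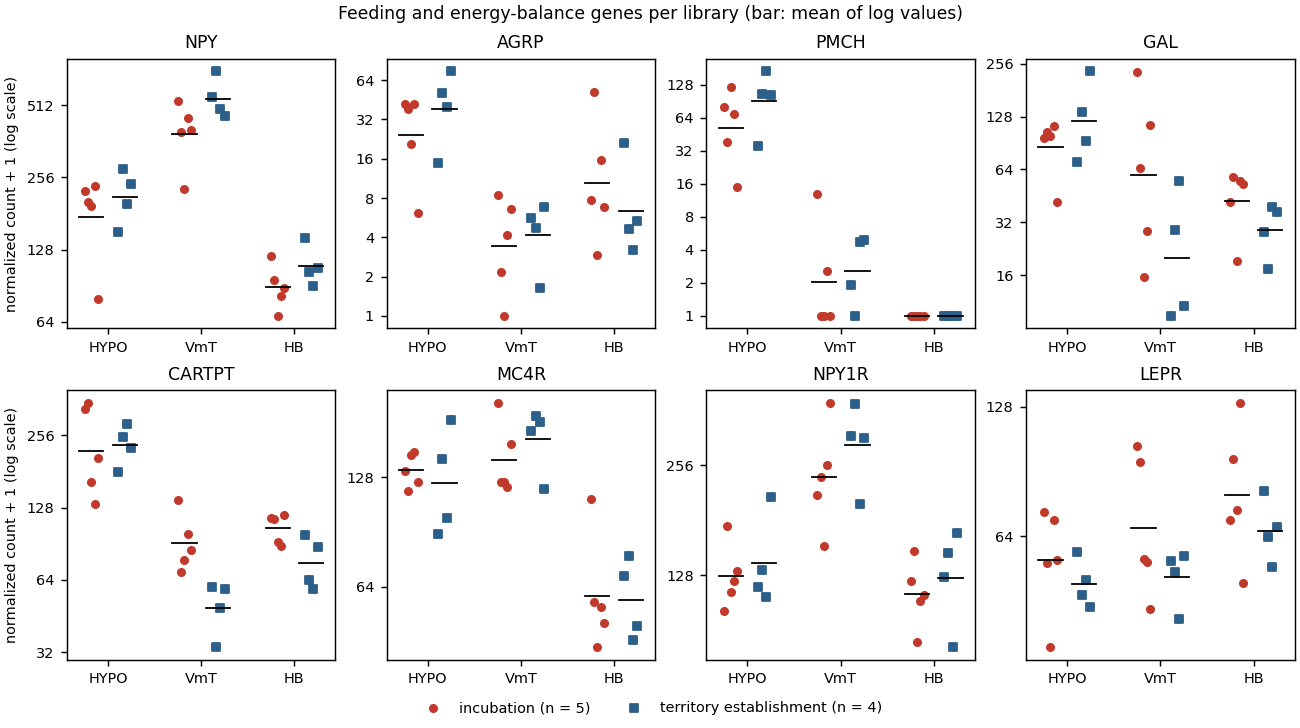
Normalized count plus 1 (vertical axis, log scale) of each gene in every library, by region and stage, with a bar at the mean of the log values (5 INC and 4 TE females). PMCH lies at the bottom in all HB libraries, and the stages are apart only for CARTPT in VmT, where INC lies at 68.2 to 137 and TE at 32.5 to 58.8.

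The second question was whether expression differed between the breeding stages within a region. In HYPO limma called 0 of the 8, with 0 at an unadjusted p under 0.05, beside 0.514% of all transcripts called and 14.2% at that unadjusted p. EdgeR and DESeq2 also called 0. The stages overlapped for all 8 genes, beside 5.56% of transcripts whose stages did not. In HYPO 6 of the 8 had a lower mean log2 level during INC, and the median difference was -0.19, beside 0.0055 over all transcripts. Of the 10 hypothalamus markers 8 were also below 0 there, with a median of -0.72 and 2 at an unadjusted p under 0.05, 0 of them called by limma. Their part in these differences was not tested.

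NPY in HYPO had 224, 202, 194, 234 and 78.8 normalized counts in the INC females, and 150.2, 275, 198 and 238 in the TE females. Apart from the lowest INC library, that of female 85899, the INC libraries lay inside the TE range (log2 difference -0.27, 95% interval -0.79 to 0.26, adjusted p = 0.732). AGRP had 40.8, 37.4, 19.8, 40.7 and 5.19 in the INC females, and 13.7, 50.3, 39.1 and 73.8 in the TE females. Again female 85899 was lowest and TE female 85694 highest, and the difference of -0.67 (95% interval -2.19 to 0.85, adjusted p = 0.771) was within the spread. PMCH had 78.9, 37.4, 122, 67.9 and 13.8 in the INC females, against 34.4, 105, 169 and 104 in the TE females (-0.79, 95% interval -2.12 to 0.53, adjusted p = 0.658). GAL had 95.8, 103, 97.7, 112 and 40.7 in the INC females, and 69.7, 135, 92.5 and 230.5 in the TE females (-0.48, 95% interval -1.67 to 0.70, adjusted p = 0.794). In AGRP, PMCH and GAL alike the lowest library was that of INC female 85899 and the second lowest that of TE female 85674, while the highest was a TE female. The intervals of all 3 run past 1 on the log2 scale in the downward direction.

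CARTPT in HYPO had 330, 350, 163, 132 and 204 normalized counts in the INC females and 179, 251, 284 and 227 in the TE females. The INC females reached both above and below the TE females, and the means were 236 ± 98.5 and 235 ± 44.4 (SD, n = 5 and 4; log2 difference -0.080, 95% interval -0.59 to 0.43). The stages of the receptors overlapped too. MC4R averaged 134 ± 14.5 in INC and 128 ± 43.5 in TE (0.12, 95% interval -0.37 to 0.60), NPY1R 128 ± 27.5 and 142 ± 45.1 (-0.12, 95% interval -0.61 to 0.37) and LEPR 57.0 ± 14.9 and 49.0 ± 6.58 (0.18, 95% interval -0.35 to 0.71).

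Across the 9 HYPO libraries NPY, AGRP and GAL varied together. NPY and AGRP had a Pearson r of 0.94 on the log2 scale (Spearman rho 0.95, n = 9 libraries), which was 0.89 without the 2 libraries farthest from the median of NPY and 0.93 after each stage's mean was removed. AGRP and GAL had r = 0.92 (rho 0.82, 0.77 without 2) and NPY and GAL r = 0.86 (rho 0.90, 0.73 without 2). PMCH followed these less steadily. It had r = 0.80 with NPY (0.43 without the 2 libraries farthest in NPY) and 0.75 with AGRP (-0.045 without the 2 farthest in AGRP). With GAL it had r = 0.69 (0.069 without the 2 farthest in PMCH). CARTPT had r between 0.088 and 0.31 with the other 4 peptides. These are descriptions: each point is 1 dissected piece, and the mean log2 level of 10 hypothalamus markers moved with NPY (r = 0.63), AGRP (r = 0.79) and GAL (r = 0.91) too. The mean of the 13 thalamus and midbrain markers had r of -0.58, -0.64 and -0.75 with these genes. Without the 2 libraries farthest in each gene, these r were -0.27, -0.75 and 0.26, and those of the hypothalamus markers were 0.46, 0.76 and 0.61. The libraries at the ends were those named above: female 85899 had the lowest value of the 9 for 4 of the 8 genes, and female 85694 the highest for 4. The part of tissue composition in this was not tested.

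**Figure D3:**
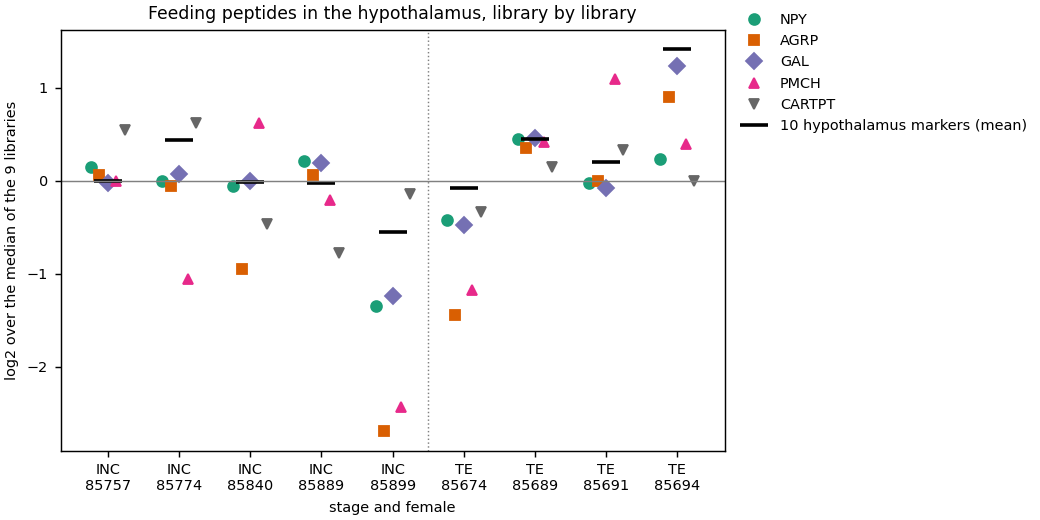
Peptide genes in the 9 HYPO libraries, as log2 of the value over the median of the 9 libraries (vertical axis), with the mean of 10 hypothalamus markers as a black bar, INC females left of the dotted line and TE females right of it. NPY, AGRP, GAL and PMCH are lowest in INC female 85899, and AGRP and GAL are highest in TE female 85694.

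In VmT, CARTPT was higher in the INC females than in the TE females. It had 137, 68.2, 76.6, 98.8 and 84.5 normalized counts in the INC females, against 58.8, 32.5, 47.7 (the unresolved library) and 57.5 in the TE females. Every INC library was above every TE library, as was so for 3.07% of all transcripts (4.38% without overlap in either direction), with means of 93.1 ± 27.2 and 49.1 ± 12.1 (SD, n = 5 and 4). The log2 difference was 0.90 (SE 0.25, 95% interval 0.39 to 1.41, adjusted p = 0.0412), and CARTPT was the 1 of 8 genes called, beside 3.53% of all transcripts called and 3.1% called higher in INC. GAL was the other gene at an unadjusted p under 0.05, beside 15.5% of all transcripts. EdgeR and DESeq2 also called 1. The call stands near the threshold. It was lost when VmT was fitted without the other regions (adjusted p = 0.137) and without the library of TE female 85689 (0.72, adjusted p = 0.198), the unresolved library (0.90, adjusted p = 0.0848), or that of INC female 85757 (0.75, adjusted p = 0.0882), 85889 (0.87, adjusted p = 0.0871) or 85899 (0.93, adjusted p = 0.0604).

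Genes listed as markers of tissue next to the VmT moved with stage in the same libraries, but not all of them set the regions apart. In HYPO minus VmT, 7 of the 10 hypothalamus markers were called higher and 3 lay below 0. Of the 13 thalamus and midbrain markers 7 were called higher there, and no sample of thalamus or midbrain was sequenced. TBX3 had 18.2 to 33.7 normalized counts in HYPO and 19.7 to 36.9 in HB. Of 13 markers of the thalamus and midbrain, all 13 were above 0 in INC minus TE and 1, SOX14, was called (145 and 39.5 normalized counts, log2 difference 2.17, adjusted p = 0.00311); their summed level was 2251 to 3151 in INC and 958 to 2594 in TE, and no marker was at 0 in a whole group. Of 10 hypothalamus markers, 9 were above 0 and 1, TBX3, was called (17.2 and 7.50, log2 difference 1.18, adjusted p = 0.0190), with sums of 361 to 1273 in INC and 301 to 766 in TE; NR5A1 was at 0 in all TE libraries. CARTPT had r = 0.62 with the mean of the hypothalamus markers and 0.70 with that of the thalamus and midbrain markers over the 9 VmT libraries, and 0.17 and 0.37 after each stage's mean was removed. At an unadjusted limma p under 0.05 in VmT were 9 of the 13 thalamus and midbrain markers and 7 of the 10 hypothalamus markers. The share of all transcripts there was 15.5%. SOX14 and TBX3 had adjusted p of 0.0901 and 0.232 when VmT was fitted without the other regions. The part of these tissues in the CARTPT difference was not tested.

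GAL in VmT had the widest stage difference of the 8 genes and did not pass the test. The INC females had 228, 64.7, 14.7, 27.5 and 113 normalized counts, against 8.40, 27.8, 53.9 (the unresolved library) and 9.75 in the TE females. In INC 3 libraries were above all TE libraries, and the other 2 lay inside their range (log2 difference 1.58, SE 0.58, 95% interval 0.40 to 2.76, adjusted p = 0.145). Without the library of INC female 85840, the lowest of INC, it was called (2.06, adjusted p = 0.0360). GAL followed the hypothalamus markers closely in VmT (r = 0.90, rho 0.85, 0.87 after stage means, n = 9). These markers are the peptide genes AVT (vasotocin), NPVF, GNRH1 and GHRH and the transcription factor genes NKX2-1, OTP, NR5A1, TBX3, HMX3 and SIX6. The study reports stage differences of vasotocin and NPVF from this same series of libraries. What the marker levels reflect in VmT was not tested. Without the 2 libraries highest in these markers, those of INC females 85757 and 85899, its difference was 0.62 (adjusted p = 0.639), and that of CARTPT was 0.73 (adjusted p = 0.161). These 2 libraries were chosen after seeing the data. They also hold the 2 highest GAL values in VmT (228 and 113), so the GAL difference had to shrink without them. The part of tissue composition in the GAL difference was not tested.

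**Figure D4:**
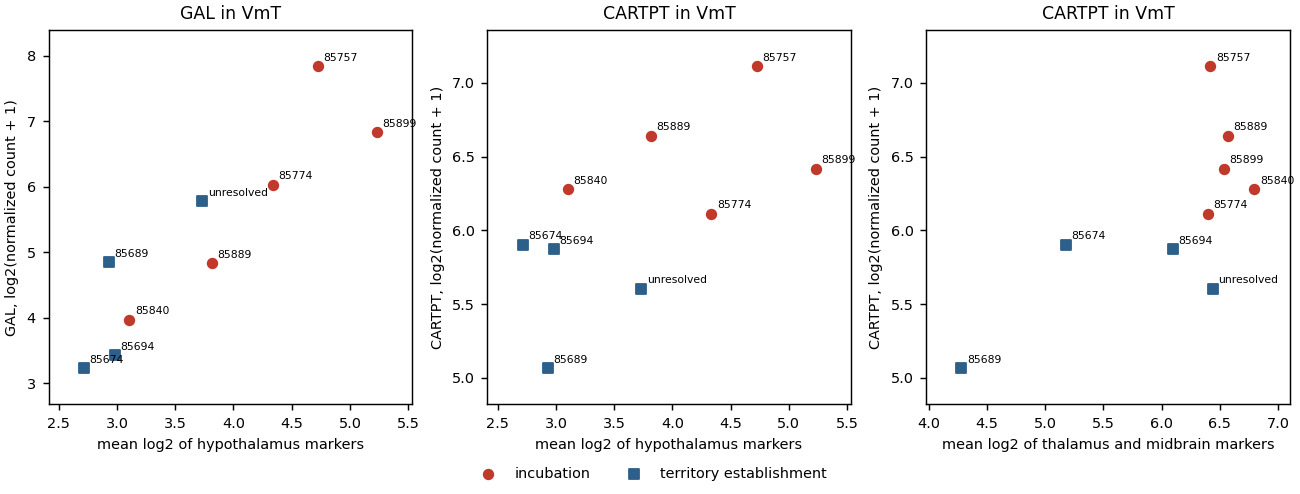
GAL and CARTPT in the 9 VmT libraries (vertical axes, log2 of the normalized count plus 1) against the mean log2 level of 10 hypothalamus markers or 13 thalamus and midbrain markers (horizontal axes), with each female's number. GAL and the hypothalamus markers are both high in INC females 85757 and 85899, and CARTPT is lowest in TE female 85689, which is also lowest in thalamus and midbrain markers.

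The feeding peptide NPY had 533, 396, 228, 453 and 401 normalized counts in the VmT of INC females and 552, 708, 491 (the unresolved library) and 459 in that of TE females. In INC 4 of the 5 libraries were below every TE library, and the difference did not pass (-0.49, 95% interval -1.02 to 0.038, adjusted p = 0.369). NPY had r = -0.73 with the mean of the thalamus and midbrain markers over the 9 VmT libraries, and -0.57 after each stage's mean was removed. The part of these tissues in the NPY difference was not tested. NPY1R (-0.29), MC4R (-0.18) and LEPR (0.38) had intervals that included 0, with adjusted p between 0.530 and 0.797. AGRP and PMCH had at most 7.42 and 12.1 normalized counts in VmT.

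In HB limma called 0 of the 8 genes, with 0 at an unadjusted p under 0.05 and 0 by edgeR and by DESeq2, beside 0.00514% of all transcripts called and 3.32% at that unadjusted p. The stages overlapped for the 7 genes with reads there, beside 1.45% of transcripts whose stages did not. CARTPT had the lowest unadjusted p, with 115, 114, 90.9, 87.3 and 118 normalized counts in the INC females and 97.4, 62.9, 57.6 and 86.9 in the TE females (0.48, 95% interval -0.033 to 0.99, adjusted p = 1). The groups overlapped, 3 INC females lying above all TE females. GAL had 40.6, 56.9, 18.4, 54.0 and 51.7 in the INC females and 27.1, 16.4, 38.0 and 35.9 in the TE females (0.55, 95% interval -0.64 to 1.73), with 4 INC females above all TE females. LEPR was highest in the library with pituitary transcripts, at 130 normalized counts in INC female 85889, against 48.7 to 96.1 in the other 8 libraries. A link between LEPR and the pituitary transcripts was not tested.

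**Figure D5:**
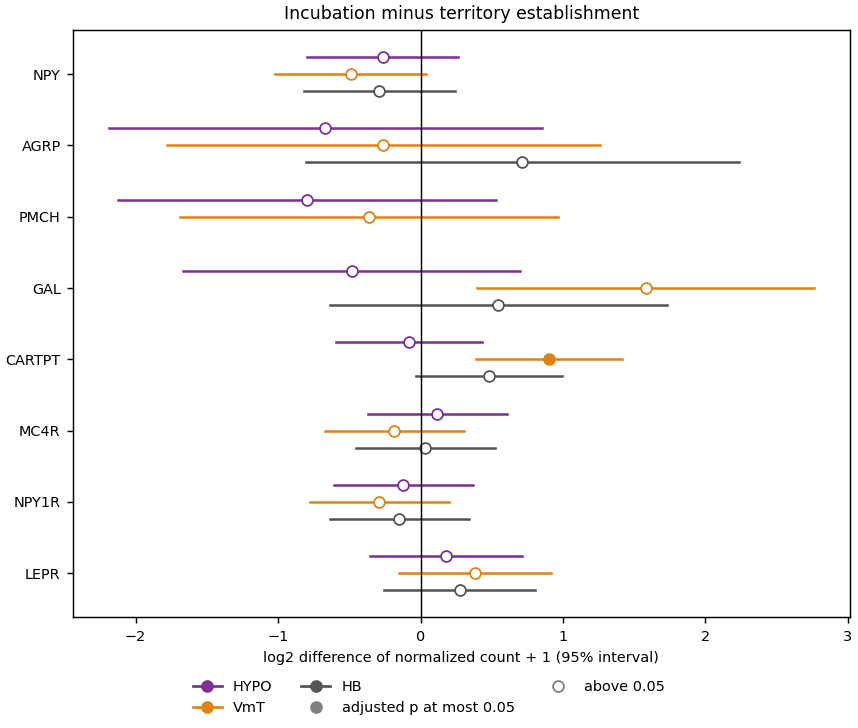
Difference between stages (INC minus TE) of each gene in each region, as log2 of the normalized count plus 1 with 95% intervals (horizontal axis), from 5 INC and 4 TE females. The 1 filled point, which passed the test, is CARTPT in VmT at 0.90; PMCH in HB has no point, since all of its libraries there are at 0.

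Whether the stage difference itself differed between regions was tested in the same fit. For HYPO minus VmT limma called 0 of the 8 genes, with 2 at an unadjusted p under 0.05 and 0 by edgeR and by DESeq2, beside 5.95% of all transcripts called and 17.7% at that unadjusted p. The 2 were CARTPT (-0.98, SE 0.35, adjusted p = 0.109) and GAL (-2.06, SE 0.82, adjusted p = 0.156), both with the lower INC minus TE value in HYPO. In the same contrast 9 of 10 hypothalamus markers were below 0 (median -1.80, with AVT, SIX6 and TBX3 called and 6 at an unadjusted p under 0.05), as were 13 of 13 thalamus and midbrain markers (median -0.72, with 1 called). Their part in these differences, and in that of CCKBR below, was not tested. CARTPT was called without the HYPO library of INC female 85757 (-1.13, adjusted p = 0.0453) or 85774 (-1.15, adjusted p = 0.0446), and GAL without the VmT library of INC female 85840 (-2.55, adjusted p = 0.0406). HYPO minus HB and VmT minus HB gave 0 called and 0 at an unadjusted p under 0.05, also 0 by edgeR and by DESeq2, beside 0% and 0.437% of all transcripts called and 6.23% and 8.45% at that unadjusted p. For HYPO minus HB edgeR called 31 and DESeq2 155 of all transcripts.

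Of the 65 measured genes of the 4 lists around these peptides, limma called 0 between stages in each region, with 6 at an unadjusted p under 0.05 in HYPO, 11 in VmT and 7 in HB. Over all transcripts the shares at that unadjusted p were 14.2%, 15.5% and 3.32%, and limma called 0.514%, 3.53% and 0.00514%. Of the 65, edgeR called 0 in each region, and DESeq2 called 1 in HYPO, 2 in VmT and 0 in HB. In HYPO the lowest adjusted p belonged to CHGB, which encodes a protein of secretory granules (133 normalized counts in INC and 25.5 in TE, log2 difference 2.14, adjusted p = 0.0807, and 0.0102 without the HYPO library of INC female 85757), and in VmT to PCSK2, which cleaves peptide precursors (1894 and 667, log2 difference 1.51, adjusted p = 0.0650, and 0.0236 with the replicate block). PCSK2 followed the female across regions, as described below, so both of its p-values may be too small. For the stage difference HYPO minus VmT, limma called 1 of the 65, edgeR 2 and DESeq2 2, beside 5.95% of all transcripts called by limma. The gene called by limma was the cholecystokinin receptor CCKBR, a receptor for a satiety peptide. In HYPO it had 28.2, 31.3, 10.4, 19.9 and 24.2 normalized counts in the INC females and 33.4, 42.3, 37.8 and 64.7 in the TE females, so that every INC library was below every TE library. In VmT it had 14.8, 31.7, 18.9, 47.1 and 26.7 in the INC females and 14.0, 12.99, 8.15 (the unresolved library) and 19.5 in the TE females, where the groups overlapped. The difference passed (HYPO minus VmT -1.90, SE 0.46, adjusted p = 0.0106), while neither stage difference alone did (HYPO -0.98, adjusted p = 0.131, and VmT 0.93, adjusted p = 0.128). The median stage difference of the 10 hypothalamus markers was -0.72 in HYPO and 1.20 in VmT, and their part in the CCKBR difference was not tested. The CCKBR difference between regions had an adjusted p of 0.0504 with female 85899's HYPO library, female 85889's HB library and the unresolved VmT library all left out.

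Over the 27 libraries, the transcripts most like each gene in pattern were ranked among those of mean 10 or more with another name; the points share their region, so these r are descriptions. For NPY the first 3 were SERTA domain-containing protein 4, LIM/homeobox protein LHX6 and transcription elongation factor A protein 1 (r = 0.94 for each). C2 calcium-dependent domain-containing protein 4C and trifunctional purine biosynthetic protein adenosine-3 came first and second both for AGRP (r = 0.84 and 0.81) and for CARTPT (r = 0.90 and 0.89). PMCH was most like tryptophan 5-hydroxylase 1 (r = 0.90) and VIP peptides (r = 0.89), and GAL most like retinal dehydrogenase 1 (r = 0.76) and the peptide gene NPVF (r = 0.75). For MC4R the first were Kv channel-interacting protein 1 and proenkephalin-A (r = 0.91 for each), for NPY1R interleukin-18 receptor 1 (r = 0.91), and for LEPR solute carrier family 13 member 3 (r = 0.81).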

How the data were processed

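Values came from 1 deposited table of 27 libraries. Per the labels and the study's methods, the authors trimmed reads with Trimmomatic 0.36, mapped them with Bowtie2 2.3.4.1 to a tree swallow transcriptome, kept proper pairs with SAMtools 1.3.1, counted reads per transcript, left out transcripts under 10 reads and used DESeq2 1.16.1 in R 3.4.1. The deposited values are a signal per transcript. Within a tolerance of 0.1 reads, 100% of values were whole multiples of 1 step per library, the same for every transcript and estimated from low values. The values are therefore read counts over a size factor, not divided by length. The study's methods give a female with low RNA quality as removed. Each gene is the transcript whose BLAST title equals its name, so a paralog under the same title would not be seen.

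Those reaching 1 normalized count in 4 or more libraries, 19473 transcripts with all 8 genes among them, were tested with limma 3.58.1 (R 4.3.3, mean-variance trend) on log2(value + 1), a scale that understates changes of low genes. One fit of 6 groups gave stages within regions, regions averaged over stages, and stage differences between regions. The same females gave all 3 regions, so their numbers pair the libraries across regions, and a fit with the female as a replicate block (consensus correlation 0.205) was an alternative; stages are different females. Others were edgeR 4.0.16 and DESeq2 1.42.0 on the recovered reads, other pseudocounts, filters and scalings, and leaving out libraries. Floors are 3 reads and cover counting error only. The code of the fit was checked on simulated data with independent libraries and no effect of the female. That check does not cover females shared across regions. Members, lists and comparisons were chosen with earlier results of these data known. Genes of the other lists are named where called between stages, and otherwise up to 3 per list and comparison with the lowest adjusted p. One marker gene's values are not reported here.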

Additional observations from a re-analysis of the deposited data

Results flagged for a closer look

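Dixon's test on the normalized counts, not on their logs, of each gene in each group of 4 or 5 libraries set 1 library apart in 6 of 46 groups. Its rate of about 1 in 20 by chance assumes normally distributed values. Low counts are skewed and the genes share libraries, so the 6 cannot be set against that rate. In HYPO during INC, female 85899 was far below the others for NPY (78.8 normalized counts, the next 194) and GAL (40.7, the next 95.8). In HB, AGRP was far above the others in INC female 85774 (51.0, the next 14.5) and in TE female 85674 (20.1, the next 4.35), and MC4R in INC female 85757 (110.5, the next 56.9). In VmT, PMCH was far above the others in INC female 85757 (12.1, the next 1.57).

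CCKBR had a stage difference that differed between regions by the interaction term of the limma fit (HYPO minus VmT -1.90, adjusted p = 0.0106), with the direction the same under all 43 alternatives.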

How the results depend on the processing

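Over 71 differences of the 8 genes and up to 43 alternatives each, 2912 of 3030 values kept direction and side of the threshold, 22 lost a call, 25 gained one and 71 changed sign, and none of those that changed sign was called before or after. HYPO minus VmT kept 6 genes called under every alternative, HYPO minus HB gave 6 or 7 and VmT minus HB 3 to 5; stages in HYPO and in HB gave 0 under every alternative. The 1 gene called between stages in VmT was 0 with quantile normalization, no trend, array weights or the VmT libraries alone, and 0 to 2 when 1 library was left out. Leaving out the HYPO library of female 85899, the HB library of female 85889 and the unresolved VmT library together, or the VmT libraries of INC females 85757 and 85899, both chosen after seeing the data, also gave 0. The stage difference HYPO minus VmT, with 0 genes called, gave 0 to 1 when 1 library was left out. With the female as a replicate block, pairing the regions, the counts were 6 for HYPO minus VmT, 7 for HYPO minus HB, 5 for VmT minus HB and 1 for stages in VmT, and the block changed the calls of LEPR and CARTPT given above and no other of the 8 genes.

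The differences that changed sign were small or wide in error. Leaving out 1 library in turn gave, for INC minus TE, -0.43 to 0.019 for NPY, -0.25 to 0.10 for CARTPT, -0.040 to 0.31 for MC4R and -0.24 to 0.078 for NPY1R in HYPO, -0.71 to 0.19 for AGRP in VmT, and -0.19 to 0.17 for MC4R and -0.13 to 0.090 for cholecystokinin in HB. It gave -0.26 to 0.23 for GAL in VmT minus HB. For the stage difference HYPO minus VmT it gave -0.87 to 0.087 for AGRP and -0.89 to 0.24 for PMCH. For HYPO minus HB it gave -0.14 to 0.31 for NPY, -0.074 to 0.30 for MC4R, -0.11 to 0.24 for NPY1R and -0.26 to 0.084 for LEPR. For VmT minus HB it gave -0.37 to 0.0033 for MC4R, -0.32 to 0.071 for NPY1R and -0.065 to 0.28 for LEPR. EdgeR and DESeq2 gave 0.0044 and 0.017 for CARTPT between stages in HYPO, 0.31 and 0.30 for PMCH between stages in VmT, 0.31 and 0.31 for PMCH in the stage difference VmT minus HB, and 0.49 and 0.43 for GAL in VmT minus HB, where a pseudocount of 5 gave 0.040 and quantile normalization 0.064. Quantile normalization gave -0.0012 for LEPR in the stage difference VmT minus HB. Array weights gave -0.036 for NPY and -0.0019 for NPY1R in the stage difference HYPO minus HB, and 0.024 for cholecystokinin between stages in HB. Without the 3 libraries named above, NPY between stages in HYPO was 0.019, AGRP in the stage difference HYPO minus VmT was 0.54 and LEPR in that of HYPO minus HB was 0.083; without the 2 VmT libraries, AGRP and PMCH in the stage difference HYPO minus VmT were 0.33 and 0.13. The causes of these changes were not tested. AGRP and PMCH had few reads in VmT, and PMCH none in HB, which limits what could be detected there.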

Other observations

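PCSK2, the convertase that cleaves neuropeptide precursors, took much the same level in every region of 1 female. HYPO, VmT and HB had 2166, 3346 and 2591 normalized counts in INC female 85757, 1852, 2355 and 1916 in female 85899, 1929, 1630 and 1779 in female 85840, 1211, 1246 and 1194 in female 85889 and 860, 895 and 720 in female 85774. In TE females they were 1242, 1167 and 885 in female 85674, 898, 664 and 674 in female 85689, and 229, 320 and 277 in female 85694. Female 85691 had 383 in HYPO and 441 in HB, and the unresolved VmT library had 517. Across the 8 females with all 3 regions, r was 0.94 for HYPO and VmT, 0.96 for HYPO and HB and 0.98 for VmT and HB on the log2 scale. The INC minus TE differences were 1.44 in HYPO (adjusted p = 0.116), 1.51 in VmT (adjusted p = 0.0650) and 1.53 in HB (adjusted p = 1), all 3 above 0, and the females of the stages overlapped in each region. The 3 regions come from the same females, so these are not 3 independent comparisons of the stages. The main fit treats all libraries as independent, and the block used 1 correlation for all transcripts (0.205). For PCSK2 the p-values of both fits may therefore be too small.

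CHGB, a protein of secretory granules, had 28.2 normalized counts in the HYPO of INC female 85757 and 122 to 189 in the other 4 INC females, against 18.3 to 37.5 in the 4 TE females. DESeq2 (adjusted p = 0.0182) and a fit of the HYPO libraries alone (0.0381) called it. In VmT it had 7.34 to 81.6 in INC and 6.53 to 40.9 in TE. In HB it had 86.8 to 140.3 in INC, against 208, 252, 159.6 and 35.9 in TE, where 3 of the 4 TE libraries lay above every INC library (log2 difference -0.33, adjusted p = 1).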
